A study of Mus musculus with 8 samples.

Results

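Integrins are cell surface receptors made of 1 alpha and 1 beta chain, and 9 integrin genes of tumor-infiltrating CD8+ T cells are described here, taken from the 55335 genes of the count table by their symbols. The 9 genes were *Itgal* and *Itgb2*, whose products pair as LFA-1, *Itga4*, *Itgb1* and *Itgb7*, the alpha4 chain and its beta partners, *Itgav*, *Itgb3* and *Itgb8*, the alphaV chain and a pair of its partners, and *Itga2*, the alpha chain of a collagen receptor. The study sequenced RNA of 4 wildtype samples (WT, genotype Lsd1f/f) and of 4 samples lacking LSD1 in T cells (KO, genotype Cd4-Cre+Lsd1f/f). Each held CD8+CD44+PD-1+ TILs, the tumor-infiltrating lymphocytes, of C57BL/6 mice that carried subcutaneous MC38 tumors, a mouse colon carcinoma line. LSD1, encoded by *Kdm1a*, is a histone demethylase. Both groups carried the floxed Lsd1 allele, and only KO mice carried Cd4-Cre, which acts in developing T cells and so deletes Lsd1 in CD4+ as well as CD8+ T cells. The mice were 6 to 10 weeks old. The protocol text puts the harvest on day 18 after implantation, whereas the design text gives 14 days. Cells of 2 mice were combined in each WT sample and each KO sample came from 1 mouse, so the effect of pooling and that of the genotype cannot be told apart, and each sample held 10000 to 20000 sorted cells.

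Integrins hold T cells to the vessel wall, to the matrix and to the cells they kill. LFA-1 binds ICAM-1 on vessels and target cells and stabilizes the immune synapse. The alpha4 chain binds VCAM-1 and fibronectin when it pairs with beta1, and the gut addressin MAdCAM-1 when it pairs with beta7. The alphaV integrins bind matrix proteins, and alphaVbeta8 frees TGF-beta from its latent complex. Integrins of a resting T cell are mostly inactive, and talin, kindlin-3 and the GTPase Rap1 switch them on from inside the cell.

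*Itgb7* and *Itga4* were the members whose level passed both thresholds of the comparison, and their promoters are shown for that reason. The RefSeq promoter table on GRCm38.p6 held 6 of the 9 members. Each sequence runs 5′ to 3′ on the strand of its gene, from 250 bases before the RefSeq start site through the first 30 bases from it, and capitals mark a match to a motif of the RUNX (TGTGGT) or ETS (GGAAGT) factors on the reverse strand. The *Itgb7* promoter lies at chr15:102231906-102232185 on the minus strand and the *Itga4* promoter at chr2:79255176-79255455 on the plus strand.
Itgb7: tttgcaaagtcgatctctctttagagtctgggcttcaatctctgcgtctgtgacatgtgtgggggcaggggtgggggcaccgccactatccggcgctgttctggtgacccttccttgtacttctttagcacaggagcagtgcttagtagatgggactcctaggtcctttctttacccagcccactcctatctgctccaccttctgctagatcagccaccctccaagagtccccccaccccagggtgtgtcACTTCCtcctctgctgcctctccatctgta
Itga4: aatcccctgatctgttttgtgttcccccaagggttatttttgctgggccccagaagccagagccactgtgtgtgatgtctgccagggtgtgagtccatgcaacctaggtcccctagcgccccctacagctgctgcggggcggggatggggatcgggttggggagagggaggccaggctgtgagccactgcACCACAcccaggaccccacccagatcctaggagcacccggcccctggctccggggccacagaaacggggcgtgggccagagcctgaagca
The search covered both strands of 300 bases around the start, and these motifs do not overlap one another in the printed stretches. The ETS match of *Itgb7* began at position 0, the start site in the RefSeq table, which lies inside the longer GENCODE span given for the gene further on, and the RUNX match of *Itga4* at position -60. The RUNX letters were found in 16.8% and the ETS letters in 23.8% of 32851 RefSeq promoters of this length. The TCF/LEF letters (CTTTGA), found in 16.0% of all promoters, were in none of the 6 member promoters. These matches describe the letters of the window alone, since no binding was measured in these samples.

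WT samples carry the names S1 to S4 and KO samples S5 to S8, and which replicate number each one had is not known. Total counts lay between 11657807 and 30295406 per sample, with S8 the deepest, and 3 counts correspond to 0.106 to 0.25 CPM, the unit of counts after scaling by library size and TMM factor. The first principal component of all tested genes, with 36.6% of the variance, separated the groups, and the second, with 14.4%, set S5 and S6 at opposite ends of the KO samples. *Kdm1a*, the targeted gene, had a mean of 44.9 ± 1.87 CPM (SD, n = 4) among WT and of 30.7 ± 4.03 CPM among KO samples, without overlap. Its log2 fold change of -0.55 (SE, the standard error, 0.14; adjusted p = 0.0163) missed both thresholds. Of 7 markers of CD8 T cells and of the sort, *Cd44* rose (433 ± 39.7 to 785 ± 136 CPM) and the other 6 were not called. *Cd8a* was at 1340 ± 93.3 CPM in WT and 1109 ± 107 CPM in KO cells, and *Cd3d* at 156 ± 17.2 and 158 ± 15.1 CPM. *Cd8b1* (346 ± 30.1 to 264 ± 24.0 CPM, adjusted p = 0.0158) and *Cd3g* (185 ± 26.6 to 144 ± 14.3 CPM, adjusted p = 0.0505) were lower in every KO sample than in any WT sample. The median log2 fold change of the 7 was -0.27. Of 13 macrophage and monocyte markers, 12 were tested and 11 fell, and their summed level was 294.7 to 834.3 CPM in WT and 45.2 to 92.9 CPM in KO samples. Among these 13, *Mrc1* was at 0 counts in S6 and S7 and *Ms4a7* in S7. The summed markers of dendritic cells were also lower, at 12.8 to 17.9 CPM in WT and 3.64 to 8.99 CPM in KO samples. Those of neutrophils, B cells, NK cells, fibroblasts, platelets, carcinoma and endothelial cells reached at most 13.2, 5.84, 7.02, 6.28, 2.50, 1.34 and 0.639 CPM. Of these sets, the NK sum was higher in every KO sample, at 0.382 to 1.32 CPM in WT and 2.32 to 7.02 CPM in KO samples. The sums of the other sets overlapped between groups. The 4 markers of CD4 and regulatory T cells summed to 339.9 to 424.7 CPM in WT and 353.0 to 465.3 CPM in KO samples. Most of this sum was *Ikzf2*, at 341 ± 34.2 CPM in WT and 284 ± 56.1 CPM in KO cells. Its log2 fold change was -0.26 (adjusted p = 0.218, not called). Of the 4 markers *Zbtb7b* rose (44.6 ± 6.85 to 102 ± 6.66 CPM, adjusted p = 9.31e-06). *Cd4* was at 4.54 ± 2.07 CPM in WT and 14.3 ± 8.65 CPM in KO cells (adjusted p = 0.0161, not called), with every KO sample above every WT sample. *Foxp3* was not called and overlapped between groups, at 0.408 to 2.475 CPM in WT and 1.335 to 4.07 CPM in KO samples. The part of these markers in the integrin levels was not tested. In bulk RNA, fewer cells of a type and less RNA per cell cannot be told apart.

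All 9 members passed the filter on low counts that left 15378 genes. A gene was called where edgeR's quasi-likelihood test gave an adjusted p below 0.01 and the fold change exceeded 1.5, and by this rule 1 of the 9 was higher and 1 was lower in KO than in WT cells. Over all tested genes 2.91% were called higher and 1.99% lower. With 9 genes, 1 call in each direction is not read as a result about the list. The KO samples all lay above the WT samples for 4 members (*Itgal*, *Itgb2*, *Itgb7* and *Itga2*), which 8.99% of all tested genes did, and all below for *Itga4*, which 8.28% did. The median log2 fold change of the 9 members was -0.06 and that of all tested genes was -0.01.

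**Figure D1:**
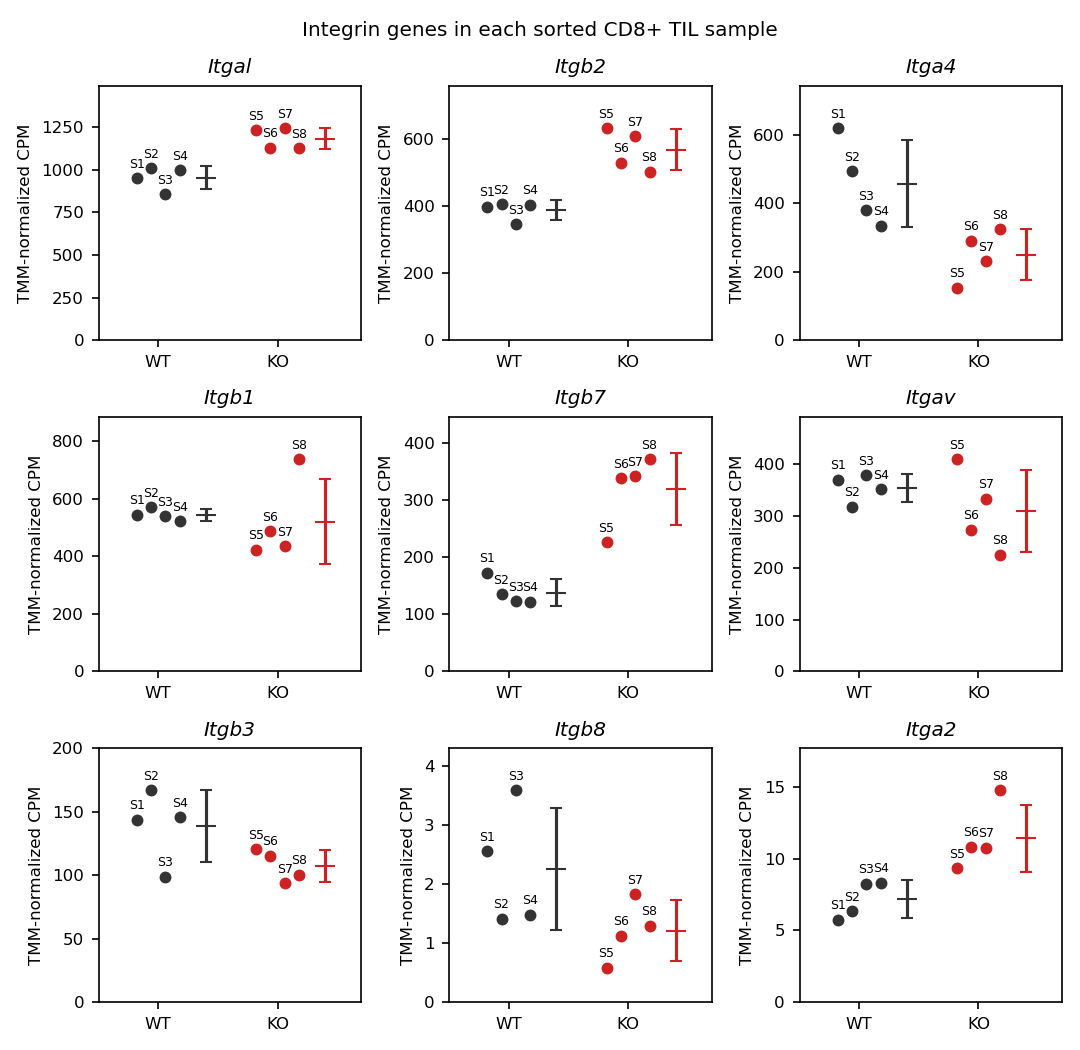
Level of each integrin gene in TMM-normalized CPM (vertical axis, starting at 0) in the 4 WT samples (black) and 4 KO samples (red), with mean ± SD beside the points. The *Itgb7* points sit between 122 and 173 CPM in WT and between 226 and 371 CPM in KO cells, whereas the *Itgb1* points overlap, with S8 apart at 736 CPM.

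Levels of different genes were compared per length of their merged exons, as RPKM (CPM divided by the length in kilobases). In WT cells the highest level per length was that of *Itgal* at 145 ± 10.3 RPKM (SD, n = 4), followed by *Itgb1* at 133 ± 4.96 RPKM and *Itgb2* at 127 ± 9.39 RPKM. The samples of each of these 3 neighbors overlapped. *Itgb7* stood apart below them at 49.9 ± 8.67 RPKM, then *Itgav* at 33.0 ± 2.49 RPKM, which overlapped with *Itga4* at 32.7 ± 9.07 RPKM, and *Itga4* with *Itgb3* at 23.5 ± 4.83 RPKM. *Itga2* at 1.00 ± 0.185 RPKM and *Itgb8* at 0.204 ± 0.0929 RPKM were far below and apart from each other. In KO cells *Itgb2* (186 ± 20.2 RPKM), *Itgal* (180 ± 9.62 RPKM), *Itgb1* (127 ± 36.0 RPKM) and *Itgb7* (115 ± 23.1 RPKM) each overlapped with the next. *Itgb7* thus stood clear of the *Itgb1* and *Itgb2* samples in WT cells and overlapped with those of *Itgb1* in KO cells. *Itgav* followed apart at 28.9 ± 7.40 RPKM, then *Itgb3* (18.2 ± 2.12 RPKM) and *Itga4* (17.9 ± 5.32 RPKM), which overlapped. *Itga2* at 1.60 ± 0.326 RPKM and *Itgb8* at 0.110 ± 0.0464 RPKM came last, as in WT cells. The merged exons of *Itga4* span 13978 bases, which includes sequence of all its transcripts and lowers its value per length.

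The LFA-1 chains were both higher in every KO sample, and neither passed both thresholds. *Itgal* (ENSMUSG00000030830.18, chromosome 7, 127296260 to 127335138, GRCm38), the alpha chain, was at 951, 1008, 858 and 996 CPM in S1 to S4 and at 1233, 1131, 1243 and 1126 CPM in S5 to S8. It was the member with the most counts, and its samples varied little within a group. The log2 fold change was 0.31 (SE 0.086, 95% interval 0.13 to 0.49, adjusted p = 0.0263), with group means of 954 ± 67.9 and 1183 ± 63.2 CPM (SD, n = 4), and missed both thresholds. *Itgb2* (chromosome 10, 77530252 to 77565708), the beta chain shared by all leukocyte beta2 integrins, was at 398, 405, 345 and 404 CPM in WT and at 631, 529, 608 and 502 CPM in KO samples. No KO sample came near the WT range, and S3 was the lowest WT sample. *Itgb2* went from 388 ± 28.7 to 567 ± 61.7 CPM, a log2 fold change of 0.55 (SE 0.099, 95% interval 0.34 to 0.76). Its adjusted p of 0.00147 passed and its fold change of 1.46 did not reach 1.5. Without S8 the log2 fold change was 0.60 and *Itgb2* passed both thresholds. The macrophage markers moved the other way from *Itgb2*, a gene that macrophages also express, and their part in its level was not tested.

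RNA of the alpha4 chain fell and that of its partner beta7 rose, while that of its partner beta1 overlapped between groups. *Itga4* (chromosome 2, 79255426 to 79333123) was at 618, 494, 379 and 335 CPM in WT and at 154, 291, 230 and 323 CPM in KO samples. The samples varied widely within both groups, and the lowest WT sample, S4, was close to the highest KO sample, S8. The mean went from 456 ± 127 CPM (SD, n = 4) to 250 ± 74.4 CPM, a log2 fold change of -0.87 (SE 0.20, 95% interval -1.30 to -0.44, adjusted p = 0.00897). The call was lost when any of S1, S2, S3, S5, S6 or S7 was left out, with adjusted p-values of 0.0364, 0.0340, 0.0120, 0.0176, 0.0144 and 0.0322, and with DESeq2, with an adjusted p of 0.0302. *Itga4* shares 1124 exon bases with *Cerkl* on the opposite strand, and *Cerkl* held 0.41% as many counts as *Itga4*.

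*Itgb7* (chromosome 15, 102215995 to 102231944, minus strand) encodes the beta7 chain, which pairs with alpha4 and with alphaE. It was at 173, 135, 122 and 122 CPM in WT and at 226, 338, 342 and 371 CPM in KO samples. All KO samples were above all WT samples, and S5, the lowest KO sample, also had the lowest *Itga4* level. The rise from 138 ± 24.0 CPM (SD, n = 4) to 319 ± 63.8 CPM was 2.31-fold (95% interval 1.86 to 2.87), a log2 fold change of 1.21 (SE 0.15, adjusted p = 3.79e-05).

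*Itgb1* (chromosome 8, 128685654 to 128733200), the beta chain shared by VLA-4 and the collagen and laminin receptors, was at 545, 571, 539 and 522 CPM in WT and at 423, 486, 435 and 736 CPM in KO samples. WT samples lay close together, whereas 3 KO samples were below and S8 above the WT range. The log2 fold change was -0.06 (SE 0.14, 95% interval -0.36 to 0.23, adjusted p = 0.845). It was -0.28 without S8, with an adjusted p of 0.0703, and turned to 0.02 without S5 and to 0.01 without S7.

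Within a sample, *Itgb7* per length was 0.468, 0.348, 0.335 and 0.345 of *Itgb1* in S1 to S4 and 0.788, 1.02, 1.16 and 0.743 of it in S5 to S8. No KO value fell in the WT range, with means of 0.374 ± 0.0629 (SD, n = 4) in WT and 0.928 ± 0.197 in KO cells, and *Itgb7* equaled or exceeded *Itgb1* in S6 and S7. These ratios describe RNA of subunits that compete for alpha4 and were not tested, and pairing of the proteins was not measured. WT samples had 3.28 to 6.34 times as much *Itgal* as *Itga4* per length, and KO samples 7.41 to 17.0 times, also without overlap. The ratio of *Itgal* to *Itgb2* was 1.11 to 1.16 in the WT and 0.908 to 1.04 in the KO group, again without overlap.

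**Figure D2:**
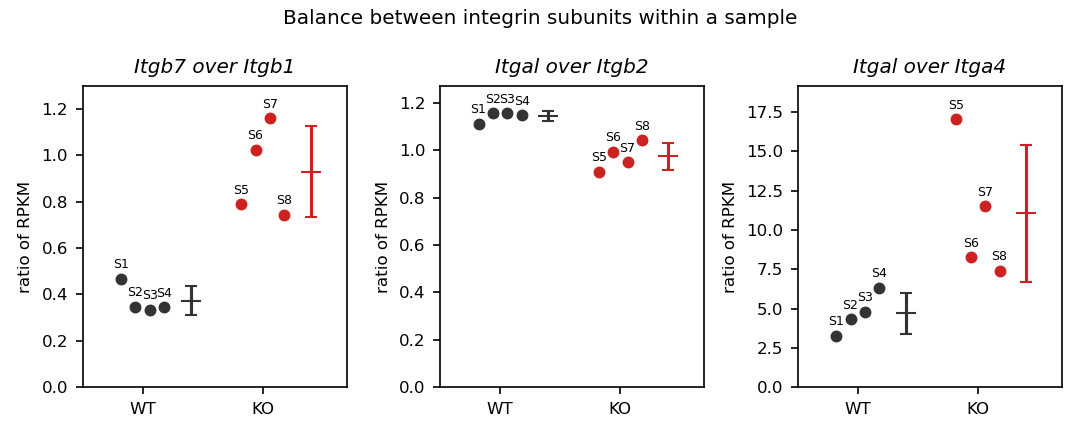
Ratio of RPKM of integrin subunits within each WT (black) and KO (red) sample, with mean ± SD beside the points and axes starting at 0. *Itgb7* over *Itgb1* was at most 0.468 in WT and at least 0.743 in KO samples, and *Itgal* over *Itgb2* was at least 1.11 in WT and at most 1.04 in KO samples.

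Levels of *Itgav*, *Itgb3* and *Itgb8* overlapped between groups. *Itgav* (chromosome 2, 83724397 to 83806916) was at 370, 318, 379 and 351 CPM in WT and at 409, 273, 334 and 225 CPM in KO samples. Both the highest and the lowest sample were KO samples, S5 and S8. From 355 ± 26.8 to 310 ± 79.5 CPM (SD, n = 4), the log2 fold change was -0.19 (SE 0.14, 95% interval -0.49 to 0.11, adjusted p = 0.457), and it lay between -0.35 without S5 and -0.06 without S8. *Itgb3* (chromosome 11, 104608000 to 104670476), which pairs with alphaV in many cells and with alphaIIb in platelets, was at 144, 167, 98.9 and 145 CPM in WT and at 121, 115, 93.8 and 100 CPM in KO samples. S3 was the WT sample within the KO range. Its log2 fold change was -0.37 (SE 0.14, 95% interval -0.66 to -0.07, adjusted p = 0.104), from 139 ± 28.5 to 107 ± 12.5 CPM. The 8 platelet and megakaryocyte markers summed to at most 2.50 CPM in any sample. Those of macrophages and monocytes summed to 294.7 to 834.3 CPM in WT and 45.2 to 92.9 CPM in KO samples. The part of either set in the *Itgb3* level was not tested.

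*Itgb8* (chromosome 12, 119158022 to 119238802, minus strand), a partner with which alphaV activates TGF-beta, was near the lower limit of these libraries. WT samples held 44, 26, 44 and 18 counts of it and KO samples 9, 14, 22 and 37. Scaled to library size this was 2.56, 1.42, 3.59 and 1.48 CPM in WT and 0.591, 1.13, 1.84 and 1.30 CPM in KO samples. The groups overlapped, with S1 and S3 above all others. The log2 fold change of -0.89 had an SE of 0.67 and a 95% interval of -2.31 to 0.52 (adjusted p = 0.463), so no difference was detected and the interval leaves its size and direction undetermined.

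*Itga2* (chromosome 13, 114833081 to 114932100, minus strand), whose alpha2 chain binds collagen together with beta1, was low, at 5.75, 6.32, 8.24 and 8.33 CPM in WT and 9.32, 10.8, 10.8 and 14.7 CPM in KO samples. All KO samples were above all WT samples, with S8 highest. From 7.16 ± 1.32 to 11.4 ± 2.32 CPM (SD, n = 4), the log2 fold change was 0.68 (SE 0.26, 95% interval 0.14 to 1.22), and the adjusted p of 0.102 missed the threshold.

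Of the 17 other integrin subunit genes, 12 were tested, of which 3 rose and 0 fell, with a median log2 fold change of 0.20. Over all tested genes 2.91% rose and 1.99% fell. *Itgae*, the alphaE chain (CD103) that pairs with beta7 and binds E-cadherin on epithelium, was at 12.8, 8.12, 16.6 and 4.70 CPM in WT and at 79.9, 103, 73.9 and 81.4 CPM in KO samples. Every KO sample was several times above the highest WT sample, and the log2 fold change was 3.00 (SE 0.27, adjusted p = 1.19e-06). Both chains of alphaEbeta7 were thus called higher. *Itga1*, the alpha1 chain (CD49a) of another collagen receptor, went from 79.8 ± 2.66 to 209 ± 28.0 CPM, with a log2 fold change of 1.39 (SE 0.11, adjusted p = 3.83e-07). *Itga3*, the alpha3 chain of a laminin receptor, went from 19.6 ± 5.64 to 62.4 ± 19.7 CPM, a log2 fold change of 1.67 (SE 0.23, adjusted p = 0.00013). Alpha1 and alpha3 both pair with beta1, the chain whose own RNA was at 544 ± 20.2 CPM in WT and 520 ± 147 CPM in KO cells. Of the subunits that were not called, those with the highest mean level over all 8 samples were *Itga6*, a laminin receptor chain (65.3 ± 8.09 CPM in WT and 59.6 ± 9.55 CPM in KO cells, adjusted p = 0.632), *Itgax*, the alphaX partner of beta2 (50.7 ± 7.59 and 49.8 ± 22.7 CPM, adjusted p = 0.977), and *Itga5*, the fibronectin receptor chain (8.90 ± 3.50 and 12.5 ± 4.42 CPM, adjusted p = 0.357). *Itgb5*, another partner of alphaV, was also not called, at 7.27, 7.85, 23.2 and 9.24 CPM in WT and at 5.19, 3.80, 1.84 and 3.83 CPM in KO samples. The KO samples all lay under the WT range, with S3 far above the other WT samples, and the log2 fold change of -1.68 (SE 0.40) had an adjusted p of 0.0115. The macrophage markers were also lower in KO samples, and each of them except *Cd14* was highest in S3 among WT samples. Their part in the *Itgb5* level was not tested. The log2 fold change of *Itgax* lay between -0.38 and 0.16 over the fits that left out 1 sample.

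**Figure D3:**
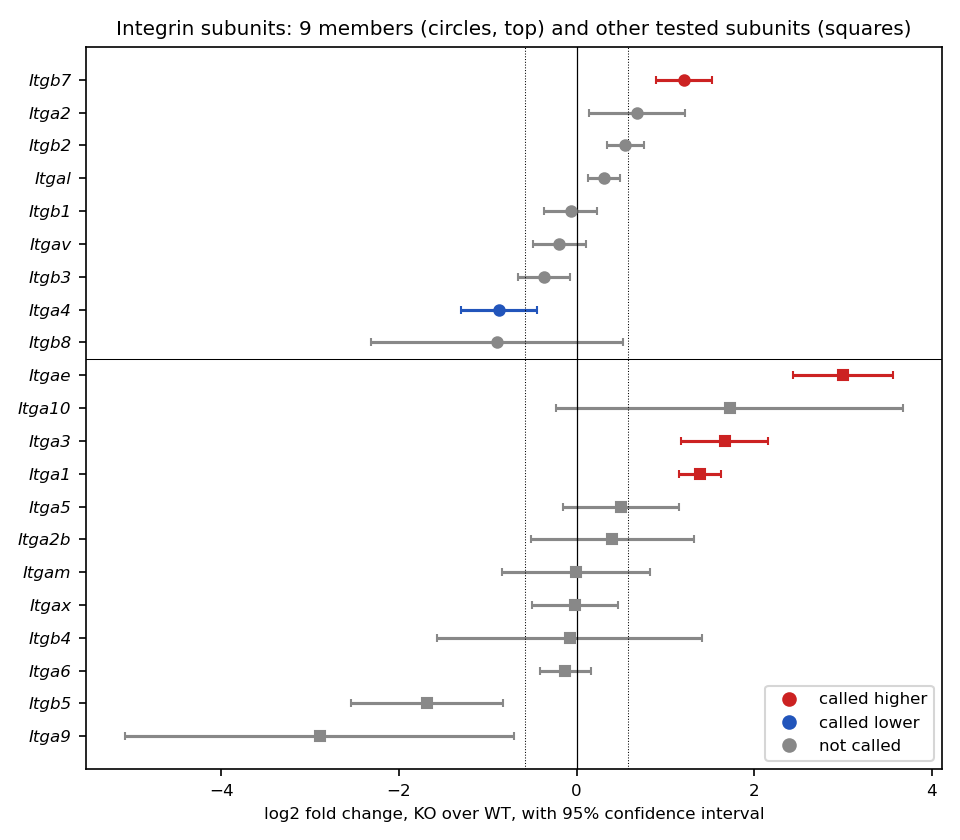
Log2 fold change of KO over WT cells with its 95% interval (horizontal axis) for the 9 members (circles, above the line) and the 12 other tested integrin subunits (squares), with dotted lines at a fold change of 1.5 in either direction. Red marks genes called higher, blue genes called lower and grey genes not called; *Itgb7*, *Itgae*, *Itga3* and *Itga1* are red and *Itga4* is blue.

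Among 26 integrin ligand genes, 15 were tested, 0 rose and 4 fell, beside 2.91% and 1.99% of all tested genes. Their median log2 fold change was -0.70. The 4 were *Spp1* (osteopontin), from 51.3 ± 18.9 to 4.82 ± 1.68 CPM (log2 fold change -3.44, adjusted p = 6.52e-07), *Fn1* (fibronectin), from 44.1 ± 13.2 to 5.39 ± 4.19 CPM (-3.08, adjusted p = 0.000269), *Thbs1* (thrombospondin-1), from 22.4 ± 3.06 to 7.28 ± 3.14 CPM (-1.63, adjusted p = 0.00101), and *F11r* (JAM-A, a ligand of LFA-1), from 7.85 ± 4.01 to 1.31 ± 0.839 CPM (-2.59, adjusted p = 0.00384). The call of *F11r* was lost without S1, S3, S6 or S8, with adjusted p-values of 0.0112, 0.0241, 0.0105 and 0.0121. Macrophages also express *Spp1*, *Fn1* and *Thbs1*, and the macrophage markers fell in the same samples, from 294.7 to 834.3 CPM in WT to 45.2 to 92.9 CPM in KO samples; their part in these ligands was not tested. Of the ligands that were not called, *Tgfb1*, whose latent product binds alphaV integrins, was at 193 ± 17.7 CPM in WT and 267 ± 27.2 CPM in KO cells (log2 fold change 0.47, adjusted p = 0.00606, under the fold threshold). *Icam1*, the main ligand of LFA-1, was at 124 ± 9.80 and 129 ± 26.5 CPM (adjusted p = 0.862), and *Nrros*, which anchors latent TGF-beta on myeloid cells, at 38.9 ± 4.20 and 29.3 ± 5.51 CPM (adjusted p = 0.115).

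Of 18 genes of inside-out activation, which switch integrins on inside the cell, 16 were tested, 1 rose and 0 fell. Over all tested genes 2.91% rose and 1.99% fell. The median log2 fold change of the 16 was 0.15. *Cyth1* (cytohesin-1), which binds the beta2 tail and promotes adhesion through LFA-1, went from 85.2 ± 10.6 to 133 ± 20.6 CPM (log2 fold change 0.64, SE 0.13, adjusted p = 0.00262). This call was lost without S3, S4 or S8, with log2 fold changes of 0.63, 0.57 and 0.55 and adjusted p-values of 0.0120, 0.0132 and 0.00932. *Tln1* (talin-1) was at 1154 ± 56.6 CPM in WT and 1205 ± 29.7 CPM in KO cells, with a 95% interval of the log2 fold change of -0.11 to 0.23. *Rapgef1*, an exchange factor of Rap1, was at 298 ± 39.6 and 336 ± 26.5 CPM, and *Rap1b* at 289 ± 4.02 and 280 ± 11.2 CPM, with intervals of -0.05 to 0.40 and -0.23 to 0.13. *Fermt3* (kindlin-3) was not called, at 254 ± 18.3 and 213 ± 2.45 CPM (log2 fold change -0.25, adjusted p = 0.0817), with every KO sample below every WT sample. Of the 16 genes, 3 had all KO samples above and 2 all below the WT samples, which 8.99% and 8.28% of all tested genes did.

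All 9 genes that hold integrin activation back were tested and 0 were called, with a median log2 fold change of 0.18. Beside them, 2.91% of all tested genes were called higher and 1.99% lower, so 0 of 9 is not read as a result about the list. *Flna* (filamin A), which competes with talin for beta tails, was at 931 ± 34.4 CPM in WT and 1054 ± 110 CPM in KO cells (adjusted p = 0.24). *Cytip*, which binds cytohesin-1 and loosens LFA-1 adhesion, was at 366 ± 16.7 and 449 ± 11.7 CPM (log2 fold change 0.30, adjusted p = 0.0305). Its KO samples all lay above its WT samples, which 8.99% of all tested genes did. *Sipa1*, which inactivates Rap1, was at 192 ± 18.3 and 186 ± 25.0 CPM (adjusted p = 0.848).

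In the adhesion complex that links integrins to actin, 17 of 20 genes were tested, 2 rose and 0 fell, with a median log2 fold change of 0.00. The shares over all tested genes were 2.91% and 1.99%. *Actn1* (alpha-actinin-1), which crosslinks actin at beta tails, was at 45.1, 46.4, 38.2 and 45.8 CPM in WT and at 117, 112, 115 and 110 CPM in KO samples. Its samples were tight in both groups, and its log2 fold change was 1.37 (SE 0.11, adjusted p = 3.53e-07). *Vcl* (vinculin), which binds talin and actin, went from 23.4 ± 5.29 to 46.3 ± 9.11 CPM, with a log2 fold change of 0.98 (SE 0.19, adjusted p = 0.00215). *Ptk2b* (PYK2), the focal adhesion kinase of lymphocytes, went from 248 ± 16.7 to 358 ± 45.4 CPM with a log2 fold change of 0.53 and an adjusted p of 0.00269, under the fold threshold. It passed both thresholds without S8, at 0.59. *Vasp*, an actin elongation factor, was at 287 ± 17.4 and 260 ± 28.5 CPM (adjusted p = 0.42), and *Zyx* (zyxin) at 239 ± 13.1 and 270 ± 15.6 CPM (adjusted p = 0.247).

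**Figure D4:**
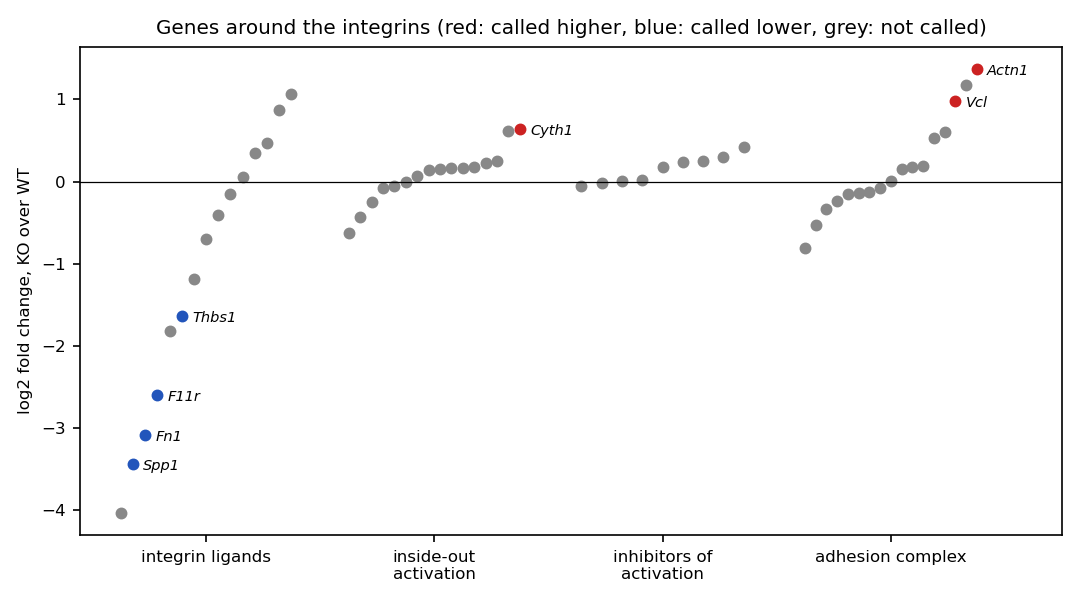
Log2 fold change of KO over WT cells (vertical axis) for each tested gene of 4 lists around the integrins: 15 ligands, 16 genes of inside-out activation, 9 inhibitors of activation and 17 adhesion complex genes, in order of their fold change. Blue names mark the 4 ligands that fell, red names *Cyth1*, *Actn1* and *Vcl*, which rose, and grey points genes that were not called.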

How the data were processed

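RNA-seq of sorted TILs covered 4 WT and 4 KO samples. The authors mapped the read pairs of directional, rRNA-depleted libraries to GRCm38 with STAR, ran featureCounts with GENCODE genes, and deposited the resulting raw counts without normalization. Whether featureCounts used the strand is not given in the sources used here. The key of the study's principal component plot gave the group of each column.

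Counts were scaled by TMM and fitted with edgeR 4.0.16 in R 4.3.3 (filterByExpr, glmQLFit, glmQLFTest, no covariates), with Benjamini-Hochberg adjustment over 15378 genes. Calls needed an adjusted p below 0.01 and a fold change over 1.5. Each SE was the size of the log2 fold change divided by the square root of F. The fit was tested on simulated data. Coordinates and merged exon lengths came from GENCODE M21, which matched 55154 of 55335 genes. Intervals of fold changes include the spread between samples, and the floor of 3 counts covers counting error only. Between samples of a group, counts differed beyond sampling noise in all pairs.

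Alternatives were other scaling and filters, glmTreat, an adjusted p under 0.05, DESeq2 1.42.0, GC content offsets (mgcv 1.9.3) and leaving out each sample. All 9 members were named, with every called gene of the other integrin subunits and up to 3 that were not called and had the highest level, and from each other list up to 5 called genes and 3 not called. *Kdm1a* was the check of the labels. *Itgb5*, *Fermt3*, *Cd44*, *Cd3d*, *Cd3g*, *Cd8a*, *Cd8b1*, *Cd4*, *Zbtb7b*, *Ikzf2*, *Foxp3*, *Cd14*, *Mrc1*, *Ms4a7* and *Cerkl* were named after their values were seen. The members and lists were chosen with earlier results of these data known.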

Additional observations from a re-analysis of the deposited data

Results flagged for a closer look

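In groups of 4 samples, the gap of an extreme sample to its nearest neighbor was divided by the range of the group, and values above Dixon's 95% critical value were taken as far from the others. Of 26 groups of member levels and subunit ratios, 2 met this, where chance gives about 1 in 20, or 1.3. The *Itgb2* level of S3 was the lowest WT value, with a gap of 0.887 of the WT range. The *Itgb7* over *Itgb1* ratio of S1 was the highest WT value, also with a gap of 0.887, and still lay below all KO samples.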

How the results depend on the processing

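Over 17 alternatives, the 9 members gave 153 values, of which 144 left the gene called or not called as before. Of the others, 8 lost a call, 1 gained one and 0 reversed a call. *Itgb7* was called higher in all 17, with log2 fold changes of 1.13 to 1.34. The 8 lost calls were those of *Itga4*: by glmTreat (adjusted p = 0.387) and DESeq2 (adjusted p = 0.0302), which each left 0 members lower, and in 6 fits that left out 1 sample. In fits without 1 sample, the members called higher numbered 1 to 2 and those called lower 0 to 1, with log2 fold changes of *Itga4* of -1.02 to -0.69. Over all genes, 165 were called higher and 130 lower by glmTreat, which tests the fold change itself, and 695 and 551 at an adjusted p under 0.05. Without a filter on low counts 531 were lower, with DESeq2 504, and without 1 sample 199 to 303; the lowest count was that without S2, and without S3, S4 or S7 the counts were 204, 209 and 220. *Vcl* lost its call by glmTreat (adjusted p = 0.139), as did *Cyth1* (0.993) and *F11r* (0.016). The causes were not tested. No paired analysis was possible because the columns carry no replicate numbers. *Itgb8* had 9 to 44 counts per sample, the fewest of the members.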
